A study of Mus musculus with 23 samples.

Results

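Fatty acid oxidation and its regulation by the nuclear receptor PPARA were followed in mouse liver across a dose series of furan, through 36 genes. The 36 genes encode PPARA itself, the enzymes of mitochondrial and peroxisomal beta-oxidation, the carnitine shuttle, and well known PPARA targets in lipid handling. They were chosen by name, with earlier results of these data known, and are 36 of the 19901 genes tested. Of those 19901, 12929 had a gene symbol and 6972 were counted under an accession or probe name. All 36 passed the filter on dim probes. The liver signal was well above background on all 23 arrays for 35 of them and on 22 arrays for Acot2.

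The animals were female B6C3F1 mice, a hybrid of inbred strains, bought at 5 to 6 weeks of age, and no group carried a transgene or a deletion. All received corn oil by gavage for 21 days, and liver was taken 4 h after the last dose. The 5 controls received corn oil alone, and furan was dissolved in it at 1 mg/kg (4 mice), 2 mg/kg (5 mice), 4 mg/kg (4 mice) or 8 mg/kg (5 mice). Liver RNA (Cy5) was hybridised with a universal mouse reference RNA (Cy3) on each array, with no dye swap, so a value is the log2 ratio of liver to reference. A difference is the mean of a dose group minus the control mean on that log2 scale, given ± its standard error from limma. A gene is said to have risen or fallen where limma's adjusted p was under 0.05.

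PPARA is a fatty acid-activated receptor of hepatocytes that pairs with RXRA and binds a direct repeat of the half-site AGGTCA with 1 base between the copies. In fasting it raises fatty acid uptake, carnitine-dependent entry into mitochondria, beta-oxidation in mitochondria and peroxisomes, omega-hydroxylation by Cyp4a enzymes and ketone body formation. Some of its targets, among them lipid droplet coat proteins and Cidec, are also under the control of other lipid-responsive factors.

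Few of the 36 genes passed the test at any dose. With 8 mg/kg against control 2 of 36 passed the test (5.56%): Cidec, which encodes a lipid droplet fusion protein, rose 2.51-fold, and Acaa1a, which encodes a peroxisomal thiolase, fell to 0.745 of control. Over all genes tested, 7.99% were called in that comparison (4.23% higher and 3.76% lower), so the share among the 36 was near the background. None of the 36 was called at 1 mg/kg, where 0% of all genes were called, at 2 mg/kg (0.01% of all genes) or at 4 mg/kg (0.0804%). A slope on dose called 3 of the 36, Cidec upward and Acaa1a and Ech1 downward, against 10.4% of all genes (5.32% upward and 5.07% downward). An F test over the doses called Cidec alone, against 3.14% of all genes, and 8 mg/kg set against 4 mg/kg called none, against 0.206%.

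The median difference of the 36 genes at 8 mg/kg was 0.02, beside -0.03 over all genes, and 16 of the 36 lay below 0. At an unadjusted p of 0.05 the 8 mg/kg comparison held 6 of the 36 genes (Acaa1a, Acaa1b, Ech1, Cpt1a, Hadh and Cidec), against 20.9% of all genes. That count was 2 at 1 mg/kg (Pex11a and Plin4, lower, against 3.52% of all genes), 0 at 2 mg/kg (8.66%), 4 at 4 mg/kg (Pex11a, Cpt1a, Plin2 and Plin4, lower, 8.9%) and 1 for 8 against 4 mg/kg (Cidec, higher, 8.43%). For 18 of 36 genes the 95% interval of the 8 mg/kg difference lay within 1.5-fold in either direction, and for 29 of 36 within 2-fold.

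**Figure D1:**
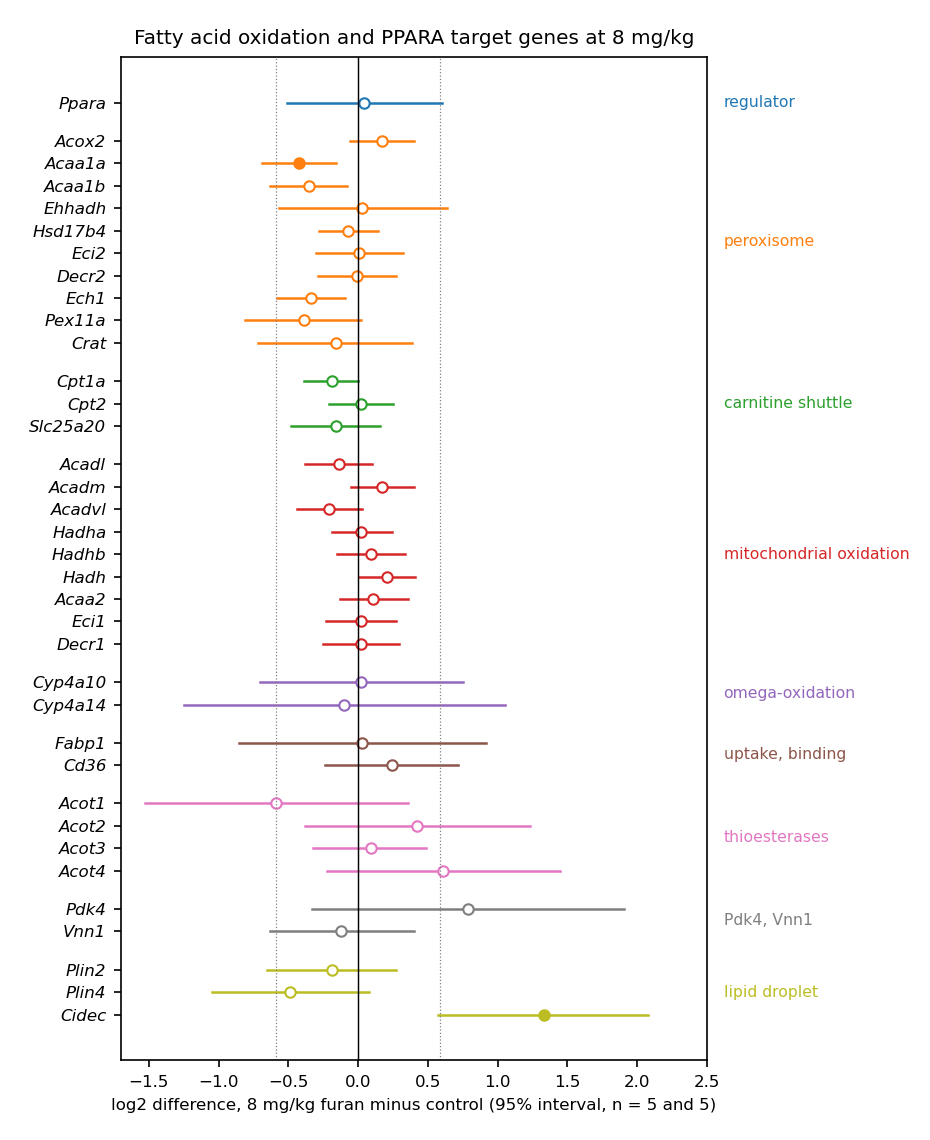
Log2 difference of 8 mg/kg furan minus control for each of the 36 genes, grouped by role, with limma's 95% interval (5 animals in each group). Filled points passed an adjusted p of 0.05 and dotted lines mark 1.5-fold, which is 0.58 on the log2 scale. The 9 mitochondrial enzymes have short intervals around 0, and Cidec stands alone at 1.33.

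The arrays lay on 5 slides, with 22029 to 30127 probes per array well above background. Hepatocyte identity was checked with 26 markers, all well above background on all 23 arrays. Exocrine pancreas transcripts (7 of 20 markers passed the filter) stood 2.40 to 3.63 above the control mean on 4 arrays, a pair from the 2 mg/kg group (replicates 1 and 5), 4 mg/kg replicate 1 and 8 mg/kg replicate 5. On the other arrays they stood at most 0.48 above it. Neutrophil transcripts (4 of 10 passed) stood 2.83 above it in replicate 4 at 2 mg/kg. Adipocyte markers (5 of 14 passed, 4 were on all arrays and 3 on none) scored -0.36 to -0.08 at 8 mg/kg and -0.18 to 0.12 in controls. In whole liver, fewer cells of a type and less RNA per cell cannot be told apart.

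Slide 3, which held no 4 mg/kg animal and 1 animal of each other group, bears directly on these genes. With dose group in the fit, slide 3 was compared with the mean of the other slides. Among the 9 genes whose control ratio exceeded 5 it was higher by 0.18 to 1.81, with a median of 0.91. The median for the other 27 genes was -0.01. Cyp4a14 was 1.81 higher on that slide, Fabp1 1.58 and Cyp4a10 1.24. In the liver channel alone the median shift of the 9 genes was -0.08, from -0.61 to 0.35, whereas the reference channel shifted by a median of -0.68, from -2.13 to -0.19. The hepatocyte markers moved the same way, by 1.12 in the ratio and -0.28 in the liver channel.

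**Figure D2:**
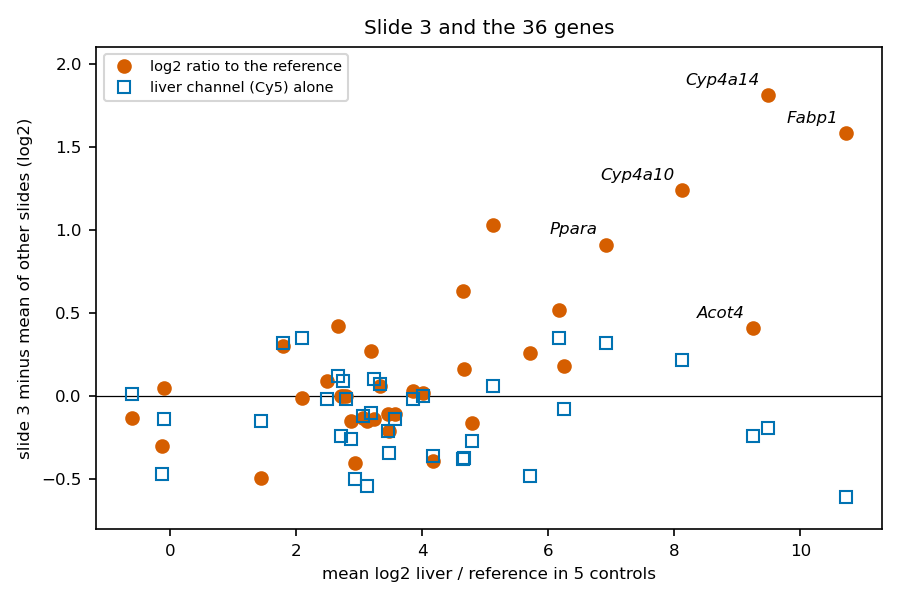
Effect of slide 3 minus the mean effect of the other slides, from a fit of dose group and slide together. The 36 genes are placed by their control log2 ratio of liver to reference. Circles are the log2 ratio and squares the liver channel alone; the circles climb to 1.81 among the genes with control ratios over 5, while the squares of those genes stay between -0.61 and 0.35.

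Promoter windows of 250 bases before the start were read from RefSeq sequences of build GRCm38.p6, given 5′ to 3′ on the gene's strand. Of the 36 genes, 29 had a window, with 32 windows in all. The repeat, AGGTCA followed by any base and a second AGGTCA, was searched on both strands with up to 2 mismatches at its 12 fixed letters. It was found in 4 of 32 windows (12.5%) and in 3.24% of all 32851 windows. With 1 mismatch at most it was found in 0.484% of all windows and, among the 36 genes, in Fabp1 only. The 4 sites are shown because they are the closest of these windows to the PPARA repeat, read along the motif, with mismatched letters in capitals.

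Fabp1: aggCcataggtca

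Acot4: CggCcaaaggtca

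Cd36: aAgtcagaggCca

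Plin2: aggtcagGggtcC

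The Fabp1 site spans positions -67 to -55 relative to the start, and none of these 4 genes passed the test at any dose. A match describes letters only and is not evidence of binding. The windows of Fabp1 (chr6:71199629-71199878, plus strand) and of the 3 genes called by the dose slope follow, to show the Fabp1 site in capitals beside windows without one. They are Acaa1a (chr9:119341044-119341293, plus strand), Ech1 (chr7:28825088-28825337, plus strand) and the 2 annotated starts of Cidec (chr6:113434765-113435014 and chr6:113435761-113436010, minus strand).

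Fabp1: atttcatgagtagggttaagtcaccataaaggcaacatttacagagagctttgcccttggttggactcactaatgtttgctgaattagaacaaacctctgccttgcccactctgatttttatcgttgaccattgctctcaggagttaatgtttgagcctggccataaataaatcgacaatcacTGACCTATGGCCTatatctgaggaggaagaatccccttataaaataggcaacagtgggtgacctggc

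Acaa1a: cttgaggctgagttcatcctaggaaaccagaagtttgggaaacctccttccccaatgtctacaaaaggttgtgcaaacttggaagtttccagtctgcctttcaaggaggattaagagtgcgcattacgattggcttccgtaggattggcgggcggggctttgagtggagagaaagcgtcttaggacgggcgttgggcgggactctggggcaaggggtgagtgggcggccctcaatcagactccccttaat

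Ech1: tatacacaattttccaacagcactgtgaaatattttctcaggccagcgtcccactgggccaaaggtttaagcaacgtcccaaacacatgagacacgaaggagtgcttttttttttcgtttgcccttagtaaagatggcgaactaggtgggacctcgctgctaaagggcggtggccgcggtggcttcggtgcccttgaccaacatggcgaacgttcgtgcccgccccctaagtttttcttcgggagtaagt

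Cidec first window: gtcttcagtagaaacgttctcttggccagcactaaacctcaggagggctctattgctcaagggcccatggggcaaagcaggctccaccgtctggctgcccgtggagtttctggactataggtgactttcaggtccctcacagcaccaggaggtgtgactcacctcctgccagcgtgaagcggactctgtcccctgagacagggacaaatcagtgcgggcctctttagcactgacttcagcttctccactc

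Cidec second window: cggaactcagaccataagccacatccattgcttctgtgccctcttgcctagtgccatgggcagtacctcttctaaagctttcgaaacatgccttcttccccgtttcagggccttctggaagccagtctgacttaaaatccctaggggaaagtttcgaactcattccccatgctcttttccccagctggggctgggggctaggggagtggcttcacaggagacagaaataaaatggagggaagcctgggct

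Neither the full repeat at 2 mismatches nor the half-site AGGTCA on either strand occurs in the Acaa1a, Ech1 or Cidec windows. The half-site occurs in 21.9% of the 32 windows and in 14% of all windows. The absence says only that these letters are not in these windows.

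Ppara, the receptor gene, showed no detectable dose response. Its log2 ratios were 6.75, 7.51, 6.71, 6.96 and 6.64 in controls and 7.56, 6.76, 6.43 and 6.51 at 1 mg/kg. At 2 mg/kg they were 6.57, 6.99, 6.71, 7.15 and 7.79, and at 4 mg/kg 7.32, 6.68, 6.27 and 6.54. The 8 mg/kg values were 6.96, 6.62, 7.69, 6.82 and 6.69. The groups overlap at every dose, and the highest animal of the control, 1, 2 and 8 mg/kg groups was in each case the one on slide 3. Against controls, 8 mg/kg gave a difference of 0.04 ± 0.27 (95% interval -0.51 to 0.60, limma adjusted p = 0.962). Its sign turned in the liver channel alone (-0.14) and in 3 of 23 fits that left out 1 array, to -0.01 without control replicate 3, -0.03 without control replicate 5 and -0.14 without 8 mg/kg replicate 3.

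The carnitine shuttle carries long-chain fatty acids into mitochondria. None of its 3 genes passed the limma test at any dose, beside 7.99% of all genes at 8 mg/kg. At 8 mg/kg 1 of the 3 had an unadjusted p under 0.05, as did 20.9% of all genes. Cpt1a, which encodes the outer-membrane transferase that sets the rate of entry, differed by -0.19 ± 0.09 at 8 mg/kg (adjusted p = 0.232) after -0.22 at 4 mg/kg. Its residual SD of 0.138 placed it at percentile 19.4 of all genes, the tightest of the 36. The inner-membrane transferase gene Cpt2 differed by 0.02 and by -0.19 on its other probe, and Slc25a20, which encodes the carrier between them, by -0.16.

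The 9 mitochondrial beta-oxidation genes were a closely bounded group, and limma called none at any dose, beside 7.99% of all genes at 8 mg/kg. At an unadjusted p under 0.05 with 8 mg/kg there was 1, Hadh, beside 20.9% of all genes. In a group this small, no call is near that background. The 8 mg/kg folds of the 9 genes ran from 0.866 for Acadvl, the very long-chain dehydrogenase gene, to 1.16 for Hadh, the short-chain hydroxyacyl-CoA dehydrogenase gene. Every 95% interval in the group lay between -0.44 and 0.41, inside 1.5-fold. The medium-chain dehydrogenase gene Acadm differed by 0.17 ± 0.11 and the long-chain one, Acadl, by -0.14 ± 0.11. The trifunctional protein genes Hadha and Hadhb differed by 0.02 and 0.09, the thiolase gene Acaa2 by 0.11, and Eci1 and Decr1, whose enzymes handle unsaturated chains, by 0.02 each. The other probe of Decr1 differed by -0.14. The mean of the 9 genes relative to control was 0.07, -0.08, 0.10, 0.06 and 0.02 in the 8 mg/kg animals. Controls spanned -0.27 to 0.14, so no 8 mg/kg animal lay outside them.

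Of the 10 peroxisomal genes, 1 fell at 8 mg/kg (3.76% of all genes fell), 2 fell along the dose slope (5.07% of all genes) and 0 rose. The median difference of the 10 was -0.12 at 8 mg/kg and -0.16 at 4 mg/kg, beside -0.03 and -0.02 over all genes.

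Acaa1a encodes the peroxisomal 3-ketoacyl-CoA thiolase that completes the peroxisomal cycle. Its log2 ratios were 3.04, 3.57, 3.63, 3.56 and 3.56 in controls and 3.05, 3.41, 3.42 and 3.48 at 1 mg/kg. They were 3.39, 3.65, 3.66, 3.52 and 3.01 at 2 mg/kg and 3.26, 3.14, 3.25 and 3.36 at 4 mg/kg. Those at 8 mg/kg were 3.17, 2.89, 3.00, 3.14 and 3.04. All 4 animals at 4 mg/kg and all 5 at 8 mg/kg lay below 4 of the 5 controls, and only control replicate 1 was as low. Against controls the 8 mg/kg animals differed by -0.42 ± 0.13 (n = 5 and 5, limma adjusted p = 0.0406), and it was lower within each of 4 slides, by -0.58 to -0.13. The slope was -0.052 ± 0.014 per mg/kg (adjusted p = 0.0157).

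The Acaa1a call at 8 mg/kg was near the threshold. It was lost in 9 of the 15 other settings, among them the liver channel alone (-0.36, adjusted p = 0.131), the deposited value table (-0.32), median signals (-0.23) and normexp correction (-0.18). It was also lost on leaving out any of control replicates 2 to 5, 1 mg/kg replicate 2 or 8 mg/kg replicates 2 to 5, with differences of -0.45 to -0.38. Without control replicate 1 the difference was -0.53. The slope lost its call without 8 mg/kg replicate 2 (-0.047, adjusted p = 0.0518), and with median signals, normexp, median centring or the liver channel alone (adjusted p = 0.0638 to 0.245).

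Ech1 encodes a dienoyl-CoA isomerase of peroxisomes and mitochondria. Its ratios were 2.99, 3.47, 3.23, 3.31 and 3.16 in controls and 3.16, 3.35, 3.24 and 3.24 at 1 mg/kg. They were 3.27, 3.27, 3.25, 2.79 and 2.65 at 2 mg/kg and 3.07, 3.09, 3.00 and 3.06 at 4 mg/kg. At 8 mg/kg they were 3.09, 2.77, 2.70, 3.00 and 2.89. All 4 and 8 mg/kg animals lay below 4 of the 5 controls, and only control replicate 1 was as low, and 2 animals at 2 mg/kg were as low as those at 8 mg/kg. The difference at 8 mg/kg was -0.34 ± 0.12 (adjusted p = 0.0854), and the slope was -0.042 ± 0.013 per mg/kg (adjusted p = 0.0379). The slope call was lost in 8 of the 14 other settings. Without any 1 of control replicates 2 to 4, 1 mg/kg replicates 2 to 4 or 8 mg/kg replicates 2, 3 and 5, its adjusted p was 0.0514 to 0.11. The 8 mg/kg difference was called without 2 mg/kg replicate 5 (adjusted p = 0.0444).

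Acaa1b, the near-identical second thiolase gene, gave 4.29, 5.09, 4.78, 4.78 and 4.42 in controls and 4.61, 4.43, 4.55 and 4.57 at 1 mg/kg. The values were 4.55, 4.72, 4.42, 4.22 and 4.43 at 2 mg/kg and 4.47, 4.71, 4.26 and 4.40 at 4 mg/kg. The 8 mg/kg values were 4.47, 4.06, 4.39, 4.40 and 4.28. The groups overlap, and the difference was -0.35 ± 0.13 (adjusted p = 0.103), called only without control replicate 1 (-0.45, adjusted p = 0.0379). The arrays' probes may not fully separate Acaa1a from Acaa1b, so the 2 genes are uncertain as separate measurements.

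Pex11a, which encodes a peroxisome division factor, gave 3.49, 4.12, 4.12, 4.08 and 4.31 in controls and 3.22, 3.43, 3.43 and 4.08 at 1 mg/kg. The values were 3.42, 4.32, 3.81, 3.54 and 3.75 at 2 mg/kg and 3.34, 3.67, 3.63 and 3.43 at 4 mg/kg. Those at 8 mg/kg were 4.09, 3.18, 3.90, 3.60 and 3.39. Every furan group had most of its animals below the 4 upper controls without an order by dose, and the differences were -0.48, -0.26, -0.51 and -0.39 from the lowest to the highest dose (adjusted p = 0.267 at 8 mg/kg). The remaining peroxisomal genes differed by -0.16 (Crat, the carnitine acetyltransferase gene) to 0.17 (Acox2, the branched-chain acyl-CoA oxidase gene) at 8 mg/kg, and none was called. Ehhadh, which encodes the peroxisomal bifunctional enzyme and is a classical PPARA target, differed by 0.03 ± 0.29.

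**Figure D3:**
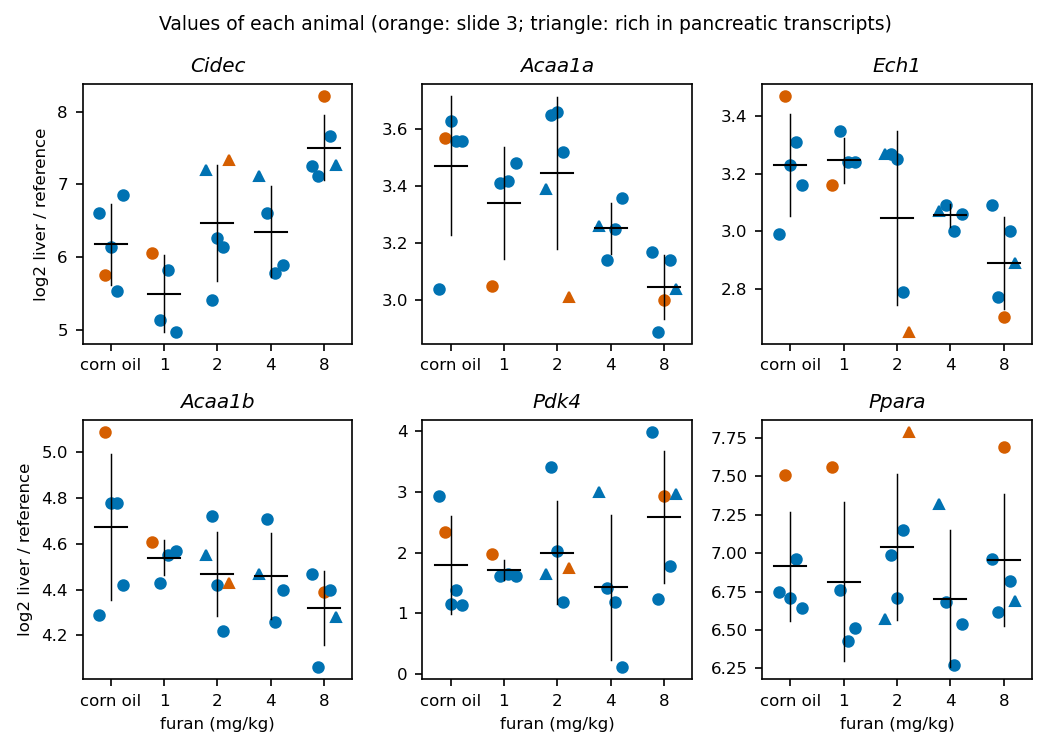
Log2 ratio of liver to reference in each animal for 6 genes by furan dose, with horizontal lines at the group mean and vertical lines of 1 SD (5, 4, 5, 4 and 5 animals). Orange points are the slide 3 arrays and triangles the 4 arrays rich in pancreatic transcripts; all 5 Cidec values at 8 mg/kg, from 7.12 to 8.21, lie above every control, and Ppara is highest on slide 3.

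The omega-oxidation genes are the classical indicators of PPARA activation in mouse liver. Cyp4a10 and Cyp4a14 encode fatty acid hydroxylases and did not pass the test at any dose. Cyp4a14 spread most of the 36 genes, at percentile 98.6 of all genes in residual SD. Its ratios ran from 7.70 in replicate 4 at 2 mg/kg to 11.53 in replicate 1 at 1 mg/kg, which is a slide 3 array. In the liver channel alone that slide 3 array gave 6.28, the lowest of the 1 mg/kg group, which reached 6.85. The Cyp4a14 difference at 8 mg/kg was -0.10 ± 0.55, with a 95% interval of -1.25 to 1.05, which includes a 2-fold change in either direction. In the liver channel alone it was -0.41 ± 0.38. Cyp4a10 differed by 0.02 ± 0.35, and its other probes by -0.11 and 0.01. The signal of close Cyp4a paralogs may not be fully separated by these probes.

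Fabp1, the liver fatty acid-binding protein gene, had a mean log2 ratio of 10.73 in controls. It differed by 0.03 ± 0.43 at 8 mg/kg and by -0.17 ± 0.19 in the liver channel alone. Cd36, which encodes a fatty acid transporter, gave -0.16, -0.29, -0.50, 0.30 and 0.14 in controls and -0.13, 0.03, 0.14 and -0.42 at 1 mg/kg. The values were -0.08, 0.04, 0.32, 0.42 and -0.21 at 2 mg/kg and 0.43, -0.72, -0.08 and -0.25 at 4 mg/kg. At 8 mg/kg they were 0.47, 0.14, 0.79, -0.25 and -0.47. The groups overlap throughout, and the difference was 0.24 ± 0.23 (adjusted p = 0.631).

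The acyl-CoA thioesterase genes release free fatty acids from their CoA esters. Limma called none of the 4 at any dose, beside 7.99% of all genes at 8 mg/kg. At an unadjusted p under 0.05 with 8 mg/kg there were 0 of the 4, beside 20.9% of all genes. The 8 mg/kg differences of the 4 ran from -0.59 to 0.61. Acot1, the cytosolic enzyme gene, gave 1.94, 3.29, 3.40, 2.88 and 3.13 in controls and 1.45, 2.04, 2.90 and 3.16 at 1 mg/kg. The values were 2.60, 3.19, 2.91, 0.46 and 1.41 at 2 mg/kg and 2.23, 2.85, 1.94 and 1.48 at 4 mg/kg. The 8 mg/kg values were 2.95, 1.66, 2.41, 2.42 and 2.25. The furan groups all had lower means than controls and all overlapped them, with differences of -0.54, -0.81, -0.80 and -0.59 from the lowest dose upward (adjusted p = 0.523 at 8 mg/kg).

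Acot2, the mitochondrial member, gave -1.21, -0.01, 0.37, 0.28 and -0.04 in controls and -1.14, -0.59, 0.02 and -0.10 at 1 mg/kg. The values were -0.19, 0.40, -0.06, -1.60 and -0.95 at 2 mg/kg and 0.33, -0.45, -0.43 and -0.04 at 4 mg/kg. Those at 8 mg/kg were 1.28, -0.77, 0.36, 0.32 and 0.32. The groups overlap, the 8 mg/kg difference was 0.42 ± 0.39 (adjusted p = 0.605), and its sign was opposite to that of Acot1, a close copy whose signal these probes may not fully separate.

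Acot4, a peroxisomal member, gave 7.91, 10.04, 9.63, 9.77 and 8.88 in controls and 9.42, 9.53, 10.67 and 9.48 at 1 mg/kg. The values were 9.83, 9.79, 9.94, 9.05 and 10.26 at 2 mg/kg and 9.19, 10.37, 9.47 and 8.84 at 4 mg/kg. At 8 mg/kg they were 10.81, 9.39, 10.32, 9.09 and 9.69. Its reference signal was well above background on 0 of 23 arrays, so the height of these ratios rests on a dim reference. The 8 mg/kg difference of 0.61 ± 0.40 (adjusted p = 0.427) was 0.04 in the liver channel alone. Acot3 differed by 0.09.

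Pdk4, which encodes the kinase that turns pyruvate dehydrogenase off during fasting, was the second most variable gene of the 36 (percentile 98.4 of all genes). It gave 2.93, 2.34, 1.16, 1.39 and 1.14 in controls and 1.97, 1.62, 1.65 and 1.62 at 1 mg/kg. The values were 1.64, 3.41, 2.03, 1.18 and 1.74 at 2 mg/kg and 3.00, 1.42, 1.18 and 0.11 at 4 mg/kg. The 8 mg/kg values were 3.99, 1.24, 2.94, 1.78 and 2.97. Replicates 1, 3 and 5 at 8 mg/kg were above every control, as were 2 mg/kg replicate 2 and 4 mg/kg replicate 1, and 8 mg/kg replicates 2 and 4 were within the controls. The difference was 0.79 ± 0.54 (adjusted p = 0.449), and the 8 mg/kg animals were higher within all 4 slides, by 0.61 to 1.96. Vnn1, the pantetheinase gene, differed by -0.12.

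Of the 3 lipid droplet genes 1, Cidec, rose at 8 mg/kg (4.23% of all genes rose), and the other 2 were not called. Cidec gave 6.61, 5.76, 6.14, 5.54 and 6.86 in controls and 6.06, 5.14, 5.83 and 4.98 at 1 mg/kg. The values were 7.20, 5.41, 6.27, 6.14 and 7.34 at 2 mg/kg and 7.11, 6.61, 5.78 and 5.90 at 4 mg/kg. Those at 8 mg/kg were 7.26, 7.12, 8.21, 7.67 and 7.27. All 5 animals at 8 mg/kg lay above every control and above every 4 mg/kg animal, separations that 8.75% and 4.01% of all genes showed. No gene of the 36 was apart from controls at 2 mg/kg (1.59% of all genes) or 4 mg/kg (3.62%). At 2 and 4 mg/kg the highest animals were the 3 whose arrays were rich in pancreatic transcripts, at 7.20, 7.34 and 7.11, and the part of that tissue in their values was not tested. Without the 4 pancreas-rich arrays the 8 mg/kg difference was 1.38 (adjusted p = 0.0175).

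The Cidec difference at 8 mg/kg was 1.33 ± 0.36 (95% interval 0.57 to 2.08, n = 5 and 5, limma adjusted p = 0.0272), and it was positive within all 4 slides that held both groups, by 0.53 to 2.45. The slope was 0.192 ± 0.045 per mg/kg (adjusted p = 0.00652). Against 4 mg/kg the difference was 1.15 ± 0.38 (adjusted p = 0.335). The Cidec reference signal was well above background on 0 of 23 arrays. In the liver channel alone the 8 mg/kg animals gave 0.91, -1.13, 0.24, -0.72 and 0.20 and the controls -1.34, -2.13, -1.97, -1.93 and -1.34 on a log2 scale, again without overlap, and the difference was 1.64 ± 0.40 (adjusted p = 0.0142). A second probe, well above background on 17 of 23 arrays, differed by 1.28, and its groups overlapped (1.97 to 4.42 at 8 mg/kg and 1.19 to 2.55 in controls).

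The Cidec call at 8 mg/kg was kept in 13 of 15 other settings, and the slope in 14 of 14. It was lost with no filter on dim probes (adjusted p = 0.0607) and without slide 3, where the difference was 1.04 (adjusted p = 0.119). Leaving out any 1 of control replicates 2 to 4 and 8 mg/kg replicates 3 and 4 also lost it, with differences of 1.15 to 1.32 and adjusted p of 0.0531 to 0.0786. The slope stayed called in all 23 fits that left out 1 array.

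Cidec is also abundant in fat cells, so the whole list of 14 adipocyte markers is given. Fabp4, Car3, Lipe and Pparg were well above background on all 23 arrays and Aqp7 on 21. Lep was so on 10 arrays, Cfd on 6, Adipoq and Cidea on 4, Retn and Plin1 on 3, and Trarg1, Tshr and Acvr1c on 0. At 8 mg/kg Cidea was so on 2 of 5 arrays and in controls on 1 of 5. Adipoq was so on 0 of 5 arrays at 8 mg/kg and 1 of 5 in controls, and Retn and Plin1 on 0 of 5 in both groups. The adipocyte score, which rests on the 5 genes that passed the filter (Fabp4, Car3, Aqp7, Lipe and Pparg), was -0.36 to -0.08 at 8 mg/kg and -0.18 to 0.12 in controls. Of those 5, Car3 had a mean log2 liver signal of 18.27, near that of the hepatocyte marker Apoa1 (18.08). Adipoq (4.81) and Plin1 (4.2) did not pass the filter. Whether the score follows fat cells was not tested, nor was the part of fat cells in the Cidec values.

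Plin4, which encodes a droplet coat protein of fat and muscle, gave -0.04, -1.0, -0.96, -0.98 and -0.04 in controls and -1.51, -1.23, -1.46 and -1.16 at 1 mg/kg. The values were -1.11, -0.78, -1.10, -0.81 and -0.56 at 2 mg/kg and -0.52, -1.15, -0.98 and -2.36 at 4 mg/kg. At 8 mg/kg they were -0.51, -1.18, -1.26, -1.26 and -1.25. All 4 animals at 1 mg/kg lay below every control, as did 1.33% of all genes in either direction, and the higher doses overlapped the controls. The differences were -0.74 ± 0.29 at 1 mg/kg (adjusted p = 0.999) and -0.49 ± 0.27 at 8 mg/kg (adjusted p = 0.325). Plin2, the main droplet coat gene of hepatocytes, differed by -0.46, -0.25, -0.52 and -0.19 from the lowest dose to the highest, with no call.

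**Figure D4:**
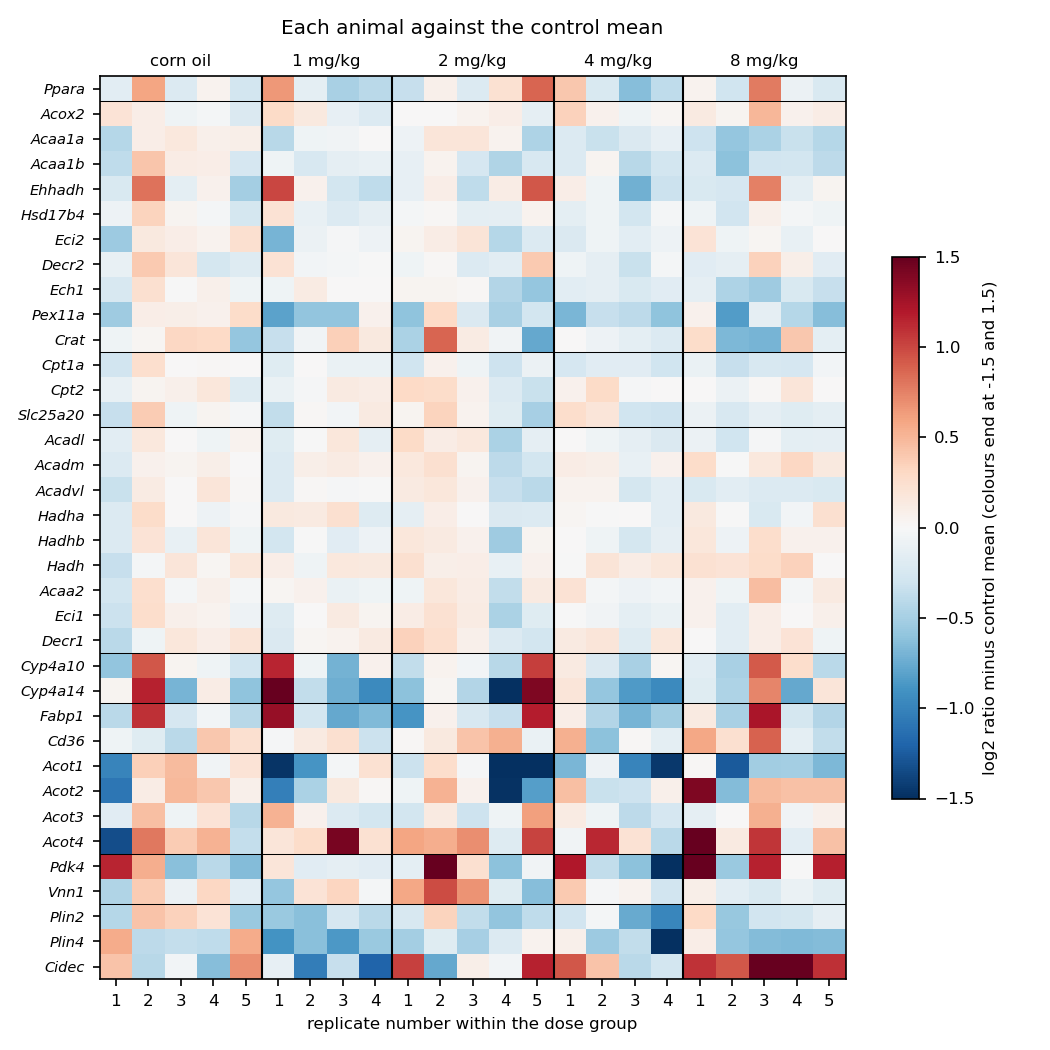
Log2 ratio of each of the 36 genes in each of the 23 animals minus the control mean, with genes ordered by role and animals by dose; colours end at -1.5 and 1.5. Cidec is red in all 5 animals at 8 mg/kg, and the columns of control replicate 1, 2 mg/kg replicate 4 and 4 mg/kg replicate 3 are mostly blue, with 31 of 36 genes below the control mean in each.

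The level of the whole set differed between arrays within dose groups. For 3 animals (control replicate 1, 2 mg/kg replicate 4 and 4 mg/kg replicate 3) 31 of 36 genes lay below the control mean, with medians of -0.27 to -0.26. In control replicate 2, on slide 3, only 5 did. The arrays of the 3 animals had 22930, 23641 and 22029 probes well above background, and that of control replicate 2 had 27448. Control replicate 3, with 23214 such probes, had 16 of 36 genes below the control mean. The part of array brightness and slide in these levels was not tested. Replicate 4 at 2 mg/kg, whose neutrophil transcripts were high, was the lowest of the 23 animals for 8 genes, among them the mitochondrial genes Acadl, Acadm, Hadhb, Acaa2 and Eci1 and the PPARA targets Cyp4a14, Acot1 and Acot2. Its mitochondrial score was -0.35, below every control. Its macrophage and Kupffer cell score of 0.78 was also the highest of the 23 animals, followed by 0.57 in control replicate 4. The part of neutrophil and macrophage transcripts in the mitochondrial score was not tested. Replicate 2 at 8 mg/kg had 30 of 36 genes below the control mean, with a median of -0.24, on an array with 26294 probes well above background.

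Other genes of the pathway, taken from lists chosen for their function, were mostly not called at 8 mg/kg either. Of 52 measured further fatty acid oxidation genes 1 rose and 3 fell (7.69% called, beside 7.99% of all genes). Pccb of propionate breakdown (-0.68 ± 0.18, adjusted p = 0.0213) and Acox3, an acyl-CoA oxidase gene (-0.31 ± 0.06, adjusted p = 0.00308), were among those that fell, and Acsl4, an acyl-CoA synthetase gene, rose by 0.49 ± 0.13 (adjusted p = 0.0235). Acox3 and Acsl4 were named after their values were seen. The median of the list was -0.12, beside -0.03 over all genes.

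Of 8 ketogenesis genes limma called none (1 of 8 at an unadjusted p under 0.05, beside 20.9% of all genes).

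Of 44 other PPARA targets 2 rose and 1 fell (6.82% called, beside the same 7.99%), and the median was -0.03. Fgf21, the hormone gene that PPARA raises in fasting and that stress signalling also raises, rose by 2.00 ± 0.44 (3.99-fold, adjusted p = 0.00703), from 0.35 to 1.47 in controls to between 2.16 and 3.66. The transferrin receptor gene Tfrc rose by 1.21 ± 0.21, and the retinol saturase gene Retsat fell by 0.50 on the log2 scale. Angptl4, a lipoprotein lipase inhibitor gene and a strong PPARA target, differed by 0.35 ± 0.25 (adjusted p = 0.471).

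Of 31 genes on a list of PPARA partners and coregulators 2 rose and 1 fell (9.68%, beside 7.99% of all genes). The list also held genes of lipid metabolism, and of the called genes only Ep300 encodes a coregulator. Abhd5, which encodes the activator of triglyceride lipase on lipid droplets, rose by 0.83 ± 0.11 (adjusted p = 0.000112) and Ep300, a coactivator gene, by 0.66 ± 0.16. Acacb, whose product makes the malonyl-CoA that inhibits Cpt1a, fell by 0.72 on the log2 scale, to 2.43 to 3.19 from 3.40 to 3.77 in controls. Rxra, the PPARA partner gene, differed by -0.41 ± 0.21 (adjusted p = 0.288), and by 0.02 in the liver channel alone. Of 17 clock genes, whose products drive daily rhythm in lipid metabolism, Clock rose by 0.76 ± 0.16 at 8 mg/kg and the other 16 did not pass (5.88% called, beside 7.99% of all genes). Along the dose slope 2 of the 17 rose and 1 fell (17.6%, beside 10.4% of all genes). Arntl, named after its values were seen, differed by 1.87 ± 0.58 at 8 mg/kg (limma adjusted p = 0.0507). Its 8 mg/kg values, -0.55 to 0.26, lay within the control range of -4.24 to 0.42. None of 16 genes of feeding state was called by limma (2 of 16 at an unadjusted p under 0.05, beside 20.9% of all genes).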

How the data were processed

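Per the file headers, the authors extracted each 2-colour array with Agilent Feature Extraction 10.7.3.1. The deposited processed signals are an intensity per spot and channel from which the software had removed background and dye bias. In the deposited value table each entry is a linear ratio of Cy5 to Cy3, whose normalization is not given in the sources used here. It served as an alternative. The log2 ratio of processed signals was normalised here by loess within each array (span 0.3, 4 iterations), without further background correction. Probes were kept that were bright in Cy5, by the well-above-background mark, on 4 or more arrays of a group (25579 of 55681). Systematic names were matched to symbols of GRCm38.p6 (26413 probes, 20018 symbols), and the brightest probe stood for a gene. Probes without a symbol were grouped by accession or kept alone, and are called genes here. The shares of all genes therefore rest on 12929 symbols and 6972 other names.

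The 19901 genes were fitted with limma 3.58.1 in R 4.3.3 over all 23 arrays, with group as the only term, two-sided, adjusted by Benjamini-Hochberg over all genes, on 18 residual degrees of freedom. The number of arrays limits the precision. The code was tested on simulated data with independent noise and no slide effect, so that test does not cover slide effects. A list score is an animal's mean, over the list's measured genes, of the log2 ratio minus the control mean. The liver channel alone is log2 Cy5 scaled to each array's percentile 75, an alternative chosen after seeing the data. The other alternatives concerned signal, background correction, normalization, filter, probe choice, moderation, slide, replicate number and arrays left out.

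The 36 genes and the lists were chosen with earlier results of these data known. Given in full were genes of the 36 that were called or whose groups did not overlap at 8 mg/kg, the 5 largest differences each way at 8 mg/kg, and Ppara. From other lists the rule named the 8 largest called differences plus a few well known genes of the pathway, of which Angptl4 and Rxra are given and some others are not reported here.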

Additional observations from a re-analysis of the deposited data

Results flagged for a closer look

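Among 60 groups of animals examined (12 genes in 5 groups), 6 held an animal far from the rest of its group. For a single group, chance alone gives about 1 in 20. Most of the 12 genes were picked from these same values, and the same animals recur in all 12. The 60 groups are therefore not independent, and the rate of 1 in 20 cannot judge the 6. Control replicate 1, which lay below the control mean for most genes followed here, accounts for 3 of the 6. Its Acaa1a ratio was 3.04 against 3.56 to 3.63 in the other controls, its Pex11a ratio 3.49 against 4.08 to 4.31, and its Acot2 ratio -1.21 against -0.04 to 0.37. Plin4 in 8 mg/kg replicate 1 was -0.51 against -1.26 to -1.18. At 1 mg/kg, Pdk4 in replicate 1 was 1.97 against 1.62 to 1.65, and Acot4 in replicate 3 was 10.67 against 9.42 to 9.53.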

How the results depend on the processing

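The absence of any call among the 36 genes at 1, 2 and 4 mg/kg and for 8 against 4 mg/kg held in every setting run. At 8 mg/kg, where 2 were called, 1 was called with median signals, normexp, median centring, the deposited value table, the 2 groups alone, trended and robust moderation, and the liver channel alone. With no filter on dim probes and without slide 3, 0 were called. Leaving out 1 array gave 0 to 3. For the slope, with 3 called, median signals, normexp, median centring and the liver channel alone gave 1, and leaving out 1 array gave 1 to 3. The F test called 0 with median signals, normexp, the value table, no filter and without slide 3, and 0 to 1 on leaving out 1 array. Over all genes the 8 mg/kg count of 1590 became 1013 with median signals, 1009 with normexp, 931 with the value table, 930 with no filter and 1039 with the 2 groups alone, and 1155 to 1784 on leaving out 1 array. The slope count of 2068 became 1350 with normexp, 1298 with the value table, and 1563 to 2398 on leaving out 1 array. The Ppara difference was -0.14 in the liver channel alone and -0.14 to 0.19 on leaving out 1 array. The cause of these shifts was not tested. With slide as a block, 11.7% of all genes were called at 8 mg/kg and 15.1% on the slope, with the same 2 and 3 of the 36.

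Replicate numbers showed no clear pairing of the animals. Correlations of same-numbered animals were -0.24 to 0.40. Of 23 arrays, 7 correlated best with one of their own number, against 20 of 23 with one of their own slide. The count expected by chance was not worked out. The replicate block called the same 2 genes at 8 mg/kg and the same 3 on the slope.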
